A study of Mus musculus with 28 samples.

Results

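The genes described here are 10 genes of antigen presentation by major histocompatibility complex (MHC) class I: Nlrc5, H2-K1, H2-D1, B2m, Tap1, Tap2, Tapbp, Psmb8, Psmb9 and Psmb10. They were chosen by name, and all 10 were found among the 55487 gene IDs of each library and passed the filter on low values. Their transcripts were measured by poly(A) RNA sequencing in 28 libraries of wild-type mouse bone marrow derived macrophages, in 7 groups of 4. The study asked how macrophages respond to engulfing dying T cells of different kinds under different cytokines. In 6 groups the cultures had received IFN-γ (IFNg in the titles) or IL-10, each at 50 ng/mL for 48 h. For each cytokine the macrophages were sorted as Treg-phagocytic (having taken up regulatory T cells), Tconv-phagocytic (having taken up conventional CD4+ T cells) or non-phagocytic. The T cells had been made apoptotic with ATP/NAD+ and carried an antibody against CD4 coupled to the dye BV421 or Ax647. The non-phagocytic macrophages came from cultures that held T cells. The remaining group, M0, was kept without polarizing cytokine for the same time. Its labels name no uptake status and no T cells, so that in a comparison with M0 the cytokine, the co-culture and the sorting cannot be told apart. The series design lists non-polarizing conditions among the co-cultures, so whether the M0 cultures held T cells is not settled. The labels do not say whether the 4 libraries of a group came from separate mice or cultures, so p-values measure only the spread between these libraries. The dye in the title and the dye in the library name disagreed for 8 of the 16 phagocytic libraries, all of them Treg-phagocytic, and libraries are named here by title.

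MHC class I molecules display peptides from proteins made inside the cell to CD8+ T cells. The proteasome cuts the proteins, and under interferon its constitutive catalytic subunits are replaced by Psmb8, Psmb9 and Psmb10, the catalytic subunits of the immunoproteasome. Tap1 and Tap2 form the transporter that carries peptides into the endoplasmic reticulum, where Tapbp (tapasin) holds empty class I molecules beside the transporter. The molecule itself is a heavy chain, here H2-K1 or H2-D1, paired with the light chain B2m. Nlrc5 is a transcriptional co-activator of MHC class I genes, and IFN-γ is a classical inducer of this pathway in macrophages.

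In the GENCODE vM21 annotation of GRCm38 (mm10), 7 of the 10 genes lie on chromosome 17, in or beside the MHC, 2 (Nlrc5 and Psmb10) on chromosome 8 and 1 (B2m) on chromosome 2. H2-K1 spans chr17:33996017-34000347 on the minus strand, H2-D1 chr17:35262730-35267499 and Tapbp chr17:33915899-33929292, both on the plus strand. Nlrc5 spans chr8:94434356-94527272 (plus strand), Psmb10 chr8:105935735-105938444 (minus strand) and B2m chr2:122147686-122153083 (plus strand). Psmb9, Tap1, Psmb8 and Tap2 form a cluster at chr17:34181987-34216321. Psmb9 (chr17:34181987-34187764, minus strand) and Tap1 (chr17:34187553-34197225, plus strand) point away from each other and overlap by 212 bases. Whether the authors' counting used strand is not given in the sources used here, so reads from those shared bases could have been assigned to either gene. H2-K1 and H2-D1 are close relatives of each other and of other class I heavy chains, so the division of reads between them is uncertain.

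Promoter windows of 250 bases before to 50 bases after the RefSeq start (GRCm38.p6) were read for 8 of the 10 genes, and not for Nlrc5 and Tap2. The stretches below, 5′ to 3′ on the gene's own strand, are shown because they hold the kinds of element known from class I promoters, among them those of NF-Y, interferon regulatory factors and NF-κB. Capitals mark the matches, and ATTGG is CCAAT read on the other strand. Both strands were searched for the letters CCAAT, GAAANNGAAA (core of the interferon-stimulated response element), TTCNNNGAA (gamma-activated sequence), GGGNNTTTCC (NF-κB site) and TGACGTCA (cyclic AMP response element).
H2-K1, chr17:34000334-34000375, minus strand: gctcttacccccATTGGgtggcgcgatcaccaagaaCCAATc
H2-D1, chr17:35263006-35263057, plus strand: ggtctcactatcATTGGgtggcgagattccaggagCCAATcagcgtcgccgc
B2m, chr2:122147536-122147650, plus strand: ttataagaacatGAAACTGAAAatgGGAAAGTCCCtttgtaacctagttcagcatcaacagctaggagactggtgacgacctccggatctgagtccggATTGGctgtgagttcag
Tap1, chr17:34187322-34187350, plus strand: gggctcggctttCCAATcagcggctgcgc
Psmb9, chr17:34187331-34187350, minus strand: gcgcagccgctgATTGGaaa
Psmb8, chr17:34198086-34198118, plus strand: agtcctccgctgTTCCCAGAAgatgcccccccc

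CCAAT stood in the windows of 6 of the 8 genes (H2-K1, H2-D1, B2m, Tap1, Tapbp and Psmb9), and in 37.4% of all 32851 mouse windows of this length. The CCAAT of Tap1 and that of Psmb9 are the same 5 bases read from opposite strands. B2m alone among the 8 held GAAANNGAAA (3.44% of all windows) and GGGNNTTTCC (1.63%), which lie next to each other in the line above without overlapping. Psmb8 alone held TTCNNNGAA (8.3% of all windows), and none of the 8 held TGACGTCA (1.79%). A match of letters describes the sequence and says nothing of binding. Only these exact letters were searched, so the lack of a match does not show that an element is absent.

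Because the files hold TPM (transcript shares, each library scaled to the same total) and no counts, depth was read as relative depth from the steps between low values. With the deepest library set to 100%, the IFN-γ libraries ranged from 11.6% to 23.9%, the IL-10 libraries from 50.4% to 92.3% and the M0 libraries from 67.7% upward. Between 14148 and 16295 genes were above 0 under IFN-γ, against 16942 to 18457 under IL-10 and 17802 to 18392 in M0. Within IFN-γ, relative depth was 11.6% to 19.8% in Treg-phagocytic, 20.7% to 23.9% in Tconv-phagocytic and 18.5% to 22.4% in non-phagocytic libraries. Genes above 0 there numbered 14148 to 15159, 15662 to 16295 and 15376 to 15723 in the same order. All 11 macrophage markers checked were above 0 in every library, with a summed mean of 19790 to 23297 TPM per group, most of it Lyz2 (12883 to 18156 TPM). The macrophage markers themselves differed between groups. In IFN-γ non-phagocytic macrophages 9 of the 11 were called lower and 2 higher than under IL-10 (median log2 fold change -0.89, Fcgr1 -1.48). Of all genes tested, 24.8% were called lower and 26.2% higher there. Against M0, 6 were lower and 4 higher under IFN-γ (median -0.19), with 25.8% and 27.1% of all genes. In IL-10 non-phagocytic macrophages against M0, 9 were higher and 2 lower (median 0.83, C1qa 1.76), with 13.7% and 12.8% of all genes. All 20 T cell markers were also above 0 in every library. Their summed level averaged 269 TPM in M0, 842, 945 and 989 TPM in non-, Tconv- and Treg-phagocytic macrophages under IFN-γ, and 209, 263 and 357 TPM in the same order under IL-10. Of that sum Il7r alone held 159 TPM in M0 and 96.0 TPM in IFN-γ non-phagocytic macrophages. In that comparison 19 of the 20 T cell markers were called higher and Il7r lower (-0.44), with a list median of 2.86. Trac and Cd3g, chosen after their values were seen, went from 7.10 to 64.5 TPM and from 6.14 to 51.7 TPM. The 6 stromal markers, of which 1 was at 0 in most groups, summed to a mean of 103 TPM in M0 and 2.32 to 4.05 TPM under IFN-γ, and to 69.2, 127 and 24.2 TPM in non-, Tconv- and Treg-phagocytic macrophages under IL-10. The 6 dendritic cell markers summed to 17.6 to 18.8 TPM under IFN-γ and 2.32 to 4.75 TPM elsewhere, as group means. Most of the IFN-γ sums was Ccr7 (11.7 to 16.9 TPM), followed by Clec9a (1.12 to 5.65 TPM). Flt3, Zbtb46, Xcr1 and Siglech each averaged no more than 0.17 TPM in any group. T cells express class I genes themselves, and the part of RNA from other cells in the values below was not tested. In bulk RNA, fewer cells of a type and less RNA per cell cannot be told apart. The mitochondrial 12S rRNA mt-Rnr1 averaged 195 TPM in M0 and 241 to 364 TPM under IL-10, but 11283, 11453 and 3781 TPM in non-, Tconv- and Treg-phagocytic macrophages under IFN-γ; its part in the results was not tested.

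Together the 10 genes held 12513 ± 227 TPM (SD, n = 4) in M0. Under IFN-γ they held 17945 ± 744 TPM in non-phagocytic, 18484 ± 1206 TPM in Tconv-phagocytic and 13959 ± 403 TPM in Treg-phagocytic macrophages. Under IL-10 they held 11855 ± 223, 12021 ± 177 and 11973 ± 62.8 TPM in the same order. The Treg-phagocytic libraries were thus the lowest of the IFN-γ groups, with the highest of them (14239 TPM) below the lowest of the other IFN-γ libraries (16926 TPM), while the IL-10 groups overlapped. These are sums of TPM as deposited, without the scaling between libraries used in the tests below. The log2 scaling factors under IL-10 were 0.15 to 0.17 in non-phagocytic and 0.069 to 0.085 in phagocytic libraries, and overlap of scaled sums was not tested. Per length, H2-D1, H2-K1 and B2m were the most abundant of the set and Nlrc5 the least in every group mean.

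Of the 11 comparisons of groups, IFN-γ non-phagocytic macrophages against M0 gave the largest member median. Of the 10, 9 were higher in IFN-γ non-phagocytic macrophages than in M0 and 0 were lower, where called means a Benjamini-Hochberg adjusted p under 0.05 in limma over 13631 genes; 27.1% of all genes tested were called higher and 25.8% lower. The members' median log2 fold change was 1.10, against -0.00078 for all genes tested. Fold changes are differences of log2(scaled TPM + 1), while TPM are printed as deposited. Of all called genes, 51.2% were higher with the scaling and 31.5% without it, and without it the median of all genes was -0.24 and 8 members were called higher and 2 (H2-D1 and Tapbp) lower. Without it 8132 of the 13631 genes were called in either direction.

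Nlrc5, the co-activator, was at 23.6, 17.2, 19.5 and 17.7 TPM in M0 and at 68.3, 65.4, 38.3 and 67.9 TPM in IFN-γ non-phagocytic macrophages. All 4 IFN-γ values lay above all 4 M0 values, and library 3 stood below its group. The log2 fold change was 1.83 (95% interval 1.39 to 2.27, adjusted p = 7.0e-05), and 2.03 without that library.

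H2-K1 was at 2902, 3049, 2978 and 3076 TPM in M0 and at 6606, 6904, 5673 and 6235 TPM under IFN-γ. Its groups were separate, with a log2 fold change of 1.37 (1.23 to 1.51, adjusted p = 4.2e-07). The other heavy chain, H2-D1, was at 5306, 5812, 5549 and 5974 TPM in M0 and at 4454, 4430.4, 4254 and 4436 TPM under IFN-γ. H2-D1 was the 1 member not called, with a log2 fold change of -0.07 (-0.17 to 0.03) and -0.36 without scaling. B2m, the shared light chain, averaged 3000.5 ± 170 TPM (SD, n = 4) in M0 and 6023 ± 98.0 TPM under IFN-γ, a log2 rise of 1.30 (1.21 to 1.39).

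Among the transporter and loading genes, Tap1 rose from 78.1 ± 4.99 to 143.5 ± 8.0 TPM (SD, n = 4; log2 fold change 1.16, 1.02 to 1.30) and Tap2 from 82.8 ± 0.797 to 103.6 ± 5.33 TPM (0.61, 0.50 to 0.72). The subunits of the transporter were thus at like levels in M0, with Tap1 the higher under IFN-γ. Tapbp was called higher by 0.16 (0.06 to 0.25, adjusted p = 0.010) with scaling and lower by -0.14 (adjusted p = 0.011) without it, on means of 273.5 TPM in M0 and 248.8 TPM under IFN-γ, so its direction rests on the scaling.

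All 3 immunoproteasome subunits rose. Psmb9 rose from 55.8 ± 1.95 to 119.7 ± 9.73 TPM (SD, n = 4; log2 fold change 1.37, 1.22 to 1.53). Psmb10 rose from 92.3 ± 8.53 to 156.2 ± 7.76 TPM (1.05, 0.88 to 1.21), and Psmb8, the most abundant of the 3 in M0, from 248.8 ± 5.47 to 342.0 ± 14.6 TPM (0.75, 0.65 to 0.84).

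**Figure D1:**
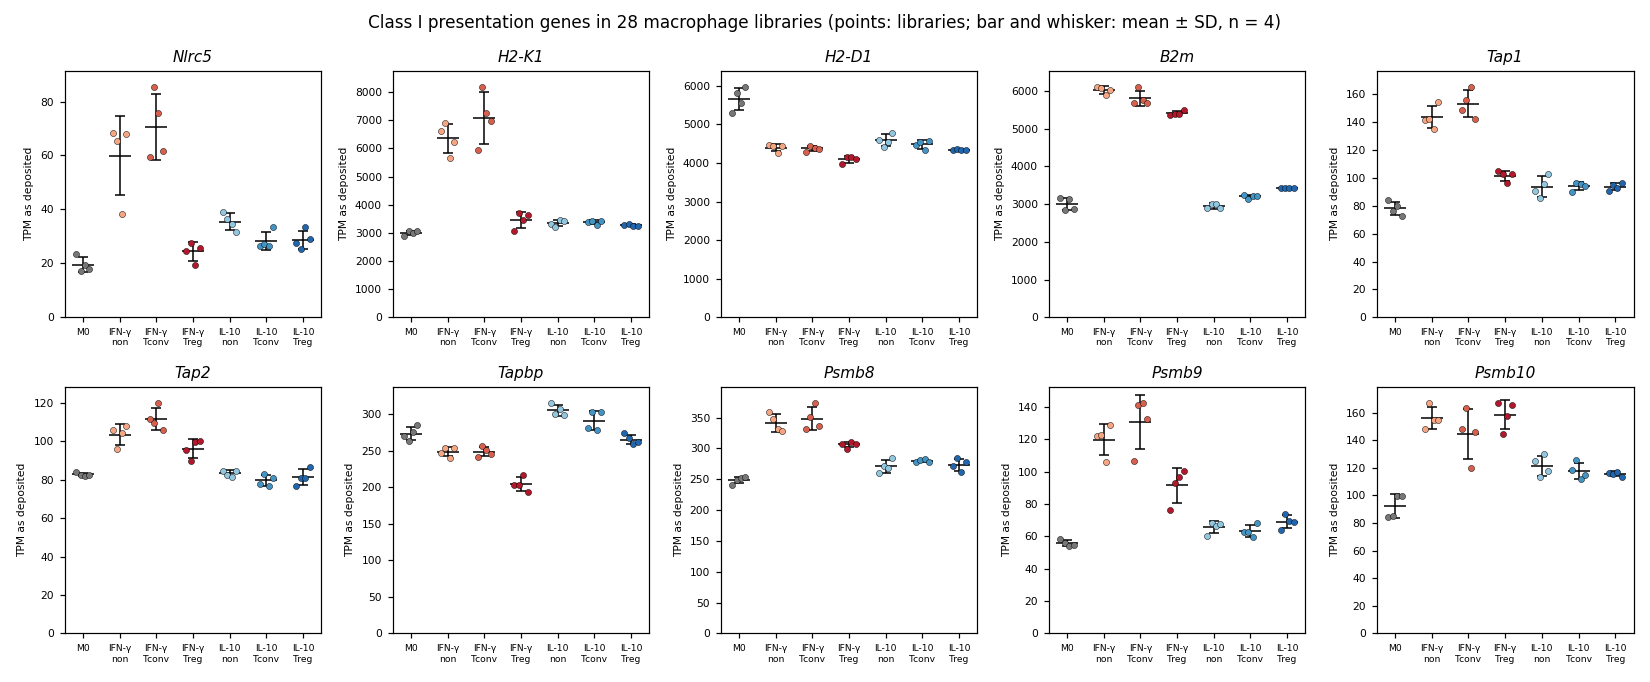
TPM of each of the 10 genes (1 panel a gene, vertical axis in TPM) in the 7 groups, with 1 point per library and the mean ± SD (n = 4). The IFN-γ group means stand above those of M0 and IL-10 for B2m and the 3 immunoproteasome subunits, and the IFN-γ Treg-phagocytic points of Nlrc5 (19.5 to 27.7 TPM) lie in the range of M0 and IL-10.

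IL-10 non-phagocytic macrophages against M0 gave smaller differences. There 7 members were higher than in M0 and 1 was lower, against 13.7% of all genes called higher and 12.8% called lower, with a member median of 0.14 on the log2 scale and 0.0037 for all genes. Nlrc5 was at 38.9, 36.6, 34.6 and 31.7 TPM, above all 4 M0 libraries, a rise of 0.82 (0.59 to 1.04, adjusted p = 0.00036). Psmb10 (0.38), Tap1 (0.24), Psmb9 (0.21), Tapbp (0.14), H2-K1 (0.14) and Psmb8 (0.11) rose by less. H2-D1 fell by 0.32 (interval -0.42 to -0.22, adjusted p = 0.00094), to 4404 to 4786 TPM. B2m (-0.04, -0.13 to 0.05) and Tap2 (-0.0044, -0.06 to 0.05) were not called. Tap1 was no longer called without M0 library 2 or 4 or IL-10 library 3, and Psmb8 without any 1 library other than IL-10 library 1 (adjusted p up to 0.067 and 0.10 over all alternatives tried).

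Between the cytokines at the same uptake status, no M0 library enters. In non-phagocytic macrophages 9 of 10 members were higher under IFN-γ than under IL-10 and 0 lower (26.2% of all genes called higher), with a member median of 0.79. B2m (1.34), H2-K1 (1.23), Psmb9 (1.16) and Nlrc5 (1.01, or 1.21 without IFN-γ library 3) differed most, followed by Tap1 (0.91), Psmb10 (0.67), Psmb8 (0.64) and Tap2 (0.61). In Tconv-phagocytic macrophages 9 were again higher and 0 lower (27.1% of all genes), with a median of 0.77 and Nlrc5 at 1.45 and H2-K1 at 1.24. In Treg-phagocytic macrophages 8 were higher and 0 lower (18.7% of all genes), with a median of 0.44. Without scaling these counts became 8 higher and 1 lower, 8 and 1, and 5 and 2 in non-, Tconv- and Treg-phagocytic macrophages, with medians of 0.49, 0.59 and 0.14. With scaling, Nlrc5 was not called in the Treg-phagocytic comparison at 0.06 (-0.24 to 0.36, adjusted p = 0.75), H2-K1 differed by 0.38 (0.23 to 0.54) and Tap1 by 0.42 (0.31 to 0.52).

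B2m (0.96), Psmb10 (0.75), Psmb9 (0.70), Tap2 (0.54) and Psmb8 (0.46) were also higher under IFN-γ in Treg-phagocytic macrophages. In that comparison H2-K1 and Tap1 were no longer called without scaling, at 0.08 (adjusted p = 0.26) and 0.11 (adjusted p = 0.058). H2-D1 was called higher under IFN-γ by 0.25, 0.15 and 0.22 in non-, Tconv- and Treg-phagocytic macrophages with scaling, and its value was -0.06, -0.03 and -0.08 without it, the last of these called lower (adjusted p = 0.012). Tapbp was not called in any of the 3 with scaling, at 0.01, -0.05 and -0.08, and was at -0.29, -0.23 and -0.38 without it. Without scaling the median of all genes moved by -0.26, -0.15 and -0.26 in the same order, and the share of called genes that were higher went from 51.4% to 29.9%, from 52.0% to 37.5% and from 50.8% to 24.4%. Beside these results all 20 T cell markers were higher under IFN-γ in each of the 3 comparisons (list medians 2.58, 2.33 and 1.97). Of the 11 macrophage markers 9, 9 and 8 were lower and 2, 1 and 1 higher (medians -0.89, -1.04 and -0.77). Over all genes tested, 24.8%, 25% and 18% were called lower in the same order. The part of these markers in the members' differences was not tested.

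**Figure D2:**
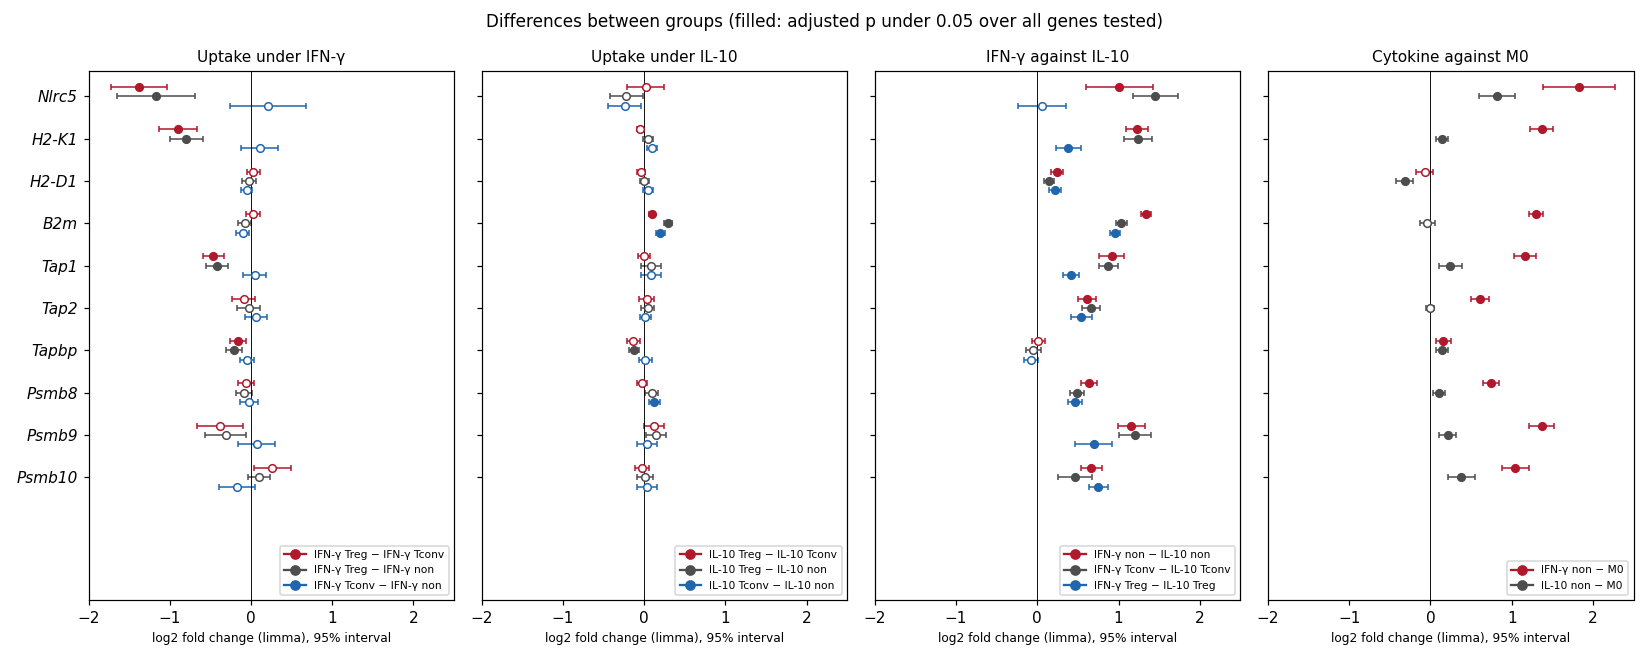
Log2 fold changes (horizontal axis) of the 10 genes in each of the 11 comparisons of groups, with 95% intervals from limma; filled points are called at an adjusted p under 0.05 and open points are not. Of the 10 genes, 9 were called higher in IFN-γ non-phagocytic macrophages than in M0 (8 higher and 2 lower, Tapbp among the latter, without scaling), and Nlrc5, H2-K1 and Tap1 lie to the left of 0 in IFN-γ Treg-phagocytic against Tconv-phagocytic macrophages, at -1.37, -0.90 and -0.46.

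Under IFN-γ, macrophages that had taken up Treg cells held less transcript of 4 of the 10 genes than those that had taken up Tconv cells: Nlrc5, H2-K1, Tap1 and Tapbp. No member was higher, while 5.40% of all genes tested were called higher and 7.30% lower. The member median was -0.13 and the median of all genes 0.04. Of all called genes, 42.5% were higher with scaling and 15.1% without, where 6 members were called lower. The share of all genes called lower without scaling is not given here.

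Nlrc5 was at 24.5, 27.7, 19.5 and 25.8 TPM in the Treg-phagocytic libraries and at 59.6, 85.4, 75.8 and 61.7 TPM in the Tconv-phagocytic libraries. The highest Treg library stood below the lowest Tconv library by more than the spread of the Treg group. It fell by 1.37 on the log2 scale (interval -1.72 to -1.03, adjusted p = 0.0019), to 0.386 of the Tconv level.

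H2-K1 was at 3077, 3717, 3448 and 3626 TPM after Treg uptake and at 5961, 8189, 7252 and 6969 TPM after Tconv uptake, without overlap. It fell by 0.90 (-1.14 to -0.67, adjusted p = 0.0021). H2-D1 did not pass the test, at 0.03 (-0.05 to 0.11), on 3972, 4164, 4159 and 4111 TPM against 4294, 4448, 4397 and 4374 TPM; without scaling it was at -0.09. B2m did not pass either, at 0.02 (-0.07 to 0.11), on 5408 ± 68.5 and 5806 ± 198 TPM (SD, n = 4).

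Tap1 was at 104.6, 102.8, 96.2 and 102.8 TPM after Treg uptake and at 148.9, 156.0, 165.4 and 142.6 TPM after Tconv uptake. Its groups were separate and it fell by 0.46 (-0.60 to -0.33, adjusted p = 0.0026). Its partner Tap2 was not called, at -0.09 (-0.23 to 0.05), on 96.2 ± 4.82 and 111.7 ± 5.88 TPM (SD, n = 4). Tapbp averaged 204.1 ± 9.36 and 248.9 ± 6.68 TPM and fell by 0.16 (-0.26 to -0.07, adjusted p = 0.040). The Tapbp call was lost when any 1 library other than Treg BV421-1 was left out and in 13 of 22 alternatives in all, with an adjusted p up to 0.12.

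The immunoproteasome subunits did not pass the test. Psmb9 was at 76.0, 93.2, 96.6 and 100.4 TPM after Treg uptake and at 106.3, 140.8, 142.2 and 132.2 TPM after Tconv uptake, with a log2 difference of -0.38 (-0.66 to -0.10, adjusted p = 0.080). Its TPM as deposited did not overlap, but the scaled values that were tested did. The TPM of H2-D1, B2m, Tap2 and Psmb8, also not called, did not overlap either, while those of Psmb10 did. On the scaled values only the 4 called members had separate groups. Without scaling the median log2 difference of all genes was -0.06 in this comparison, and the share of all genes without overlap was not determined. Psmb8 differed by -0.06 (-0.15 to 0.04). Psmb10 had the opposite sign, at 0.27 (0.04 to 0.50, adjusted p = 0.13), on 158.7 ± 10.2 and 144.4 ± 18 TPM (SD, n = 4).

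Against non-phagocytic macrophages the Treg-phagocytic libraries gave 4 members lower and 0 higher, with 5.30% of all genes called lower; this comparison shares the Treg-phagocytic libraries with the one before. Nlrc5 fell by 1.17 (-1.65 to -0.68, adjusted p = 0.014), H2-K1 by 0.80 (-1.0 to -0.59, adjusted p = 0.0024), Tap1 by 0.42 (-0.55 to -0.28, adjusted p = 0.0052) and Tapbp by 0.21 (-0.31 to -0.11, adjusted p = 0.022). Without non-phagocytic library 3, the low one for Nlrc5, Nlrc5 fell by 1.37 (adjusted p = 0.0037), and with no filter on low values its adjusted p was 0.054. The Tapbp call was lost without non-phagocytic library 1, 2 or 4 or Treg library Ax647-1 or BV421-2 (adjusted p up to 0.11 over the alternatives). The other 6 members were not called, from -0.31 (-0.57 to -0.06) for Psmb9 to 0.10 (-0.04 to 0.23) for Psmb10. Of all called genes, 36.2% were higher with scaling and 17.5% without.

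Tconv-phagocytic against non-phagocytic macrophages under IFN-γ gave 0 members called in limma, with 0.00734% of all genes called in either direction. At an unadjusted p under 0.05 there was 1 member, B2m, at -0.10 (-0.18 to -0.02). Both limma models of all 28 libraries, with 1 variance and with a variance per group, also called 0. Nlrc5 was at 0.21 (-0.26 to 0.68), H2-K1 at 0.11 (-0.12 to 0.33) and Tap1 at 0.05 (-0.10 to 0.19). Beside these differences, mt-Rnr1 was also lower after Treg uptake under IFN-γ, at 2133 to 5131 TPM, than after Tconv uptake (8842 to 14281 TPM) or in non-phagocytic macrophages (10420.0 to 11863 TPM). The T cell marker sum ranged from 800 to 1237 TPM after Treg uptake, from 822 to 1008 TPM after Tconv uptake and from 682 to 1099 TPM in non-phagocytic macrophages, so that these sums overlapped. Single markers did move with the Treg- against Tconv-phagocytic comparison. Of 20 T cell markers 2 were called higher (Cd28 at 0.42 and Il7r at 0.35) and 0 lower, of 11 macrophage markers 6 higher and 1 lower (Mertk at -0.54, median of the list 0.25), and of 2 dendritic cell markers tested 1 lower (Clec9a at -1.42). Against non-phagocytic macrophages 8 macrophage markers were higher after Treg uptake and Mertk lower (-0.40). Their part in the members' differences was not tested.

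**Figure D3:**
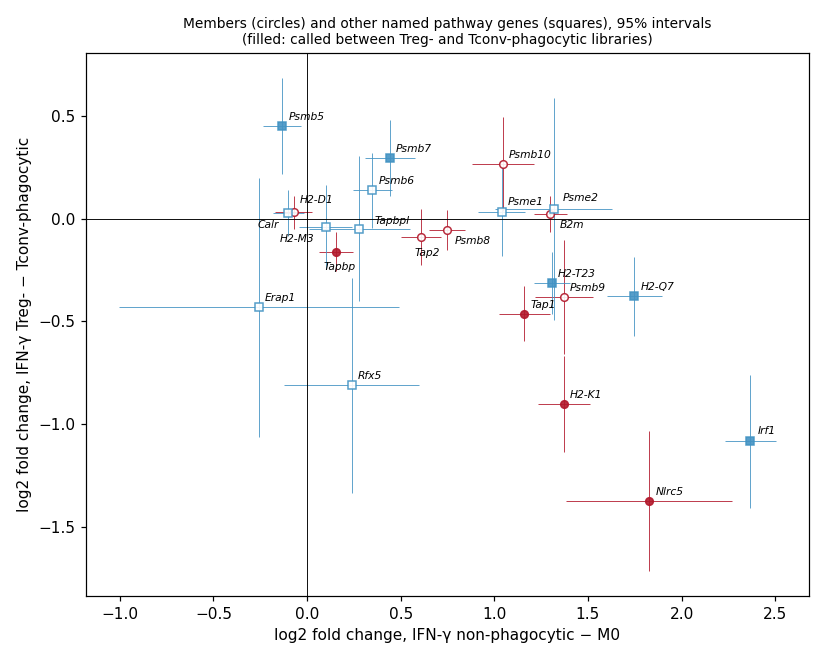
Log2 fold change of IFN-γ non-phagocytic macrophages against M0 (horizontal axis) and of IFN-γ Treg- against Tconv-phagocytic macrophages (vertical axis), with 95% intervals, for the 10 members (circles) and other named pathway genes (squares); filled symbols were called on the vertical axis, and the axes share no library. Nlrc5 (1.83 and -1.37), H2-K1 (1.37 and -0.90) and Tap1 (1.16 and -0.46) lie at the lower right, while B2m (1.30 and 0.02) and Psmb10 (1.05 and 0.27) lie at the right near or above 0.

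Under IL-10, B2m was the member called in all 3 comparisons of uptake. It was at 2886, 3005, 3015 and 2894 TPM in non-phagocytic macrophages, at 3252, 3148, 3217 and 3203 TPM after Tconv uptake and at 3433, 3424, 3428 and 3429 TPM after Treg uptake. The 3 groups did not overlap, and the Treg-phagocytic libraries differed among themselves by less than 10 TPM. Against non-phagocytic macrophages B2m rose by 0.30 after Treg uptake (0.25 to 0.35, adjusted p = 0.00015) and by 0.20 after Tconv uptake (0.15 to 0.25, adjusted p = 0.0023). These comparisons share the non-phagocytic libraries. Both calls were kept in all 18 alternatives.

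After Treg uptake under IL-10, 1 member was higher than in non-phagocytic macrophages and 1 lower, against 6.91% and 4.49% of all genes, with a member median of 0.05. Tapbp fell by 0.12 (-0.18 to -0.06, adjusted p = 0.028), from 305.3 ± 7.36 to 265.3 ± 6.73 TPM (SD, n = 4). That call was lost in 9 of 18 alternatives, among them those without non-phagocytic library 1 or 3 or Treg library Ax647-2, BV421-1 or BV421-2 (adjusted p up to 0.13). After Tconv uptake 2 members were higher and 0 lower, against 4.23% of all genes called higher, with a median of 0.04. Besides B2m this was Psmb8 at 0.13 (0.06 to 0.19, adjusted p = 0.034), a call lost in 11 of 18 alternatives, including without any 1 library other than non-phagocytic library 4 (adjusted p up to 0.34). Without scaling the share of called genes that were higher went from 60.6% to 26.9% after Treg and from 70.2% to 25.4% after Tconv uptake.

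Nlrc5 under IL-10 was at 27.5, 25.3, 33.3 and 28.9 TPM after Treg uptake and at 26.3, 27.0, 26.6 and 33.4 TPM after Tconv uptake. It did not pass the test against non-phagocytic macrophages, at -0.22 (-0.42 to -0.01, adjusted p = 0.17) and -0.24 (-0.44 to -0.04, adjusted p = 0.18). H2-K1 was at 0.05 (-0.01 to 0.11) and 0.10 (0.04 to 0.16, adjusted p = 0.077), also not called. Treg- against Tconv-phagocytic macrophages under IL-10 gave 1 member higher, B2m at 0.10 (0.06 to 0.14, adjusted p = 0.033), with 0.470% of all genes called higher. This call was lost in 16 of 22 alternatives, among them the leaving out of any 1 of the 8 libraries. In that comparison Nlrc5 was at 0.02 (-0.21 to 0.25), H2-K1 at -0.05 (-0.09 to -0.0011, adjusted p = 0.35) and Tap1 at -0.0028 (-0.07 to 0.07). The T cell markers moved with uptake under IL-10: all 20 were called higher after Treg uptake than in non-phagocytic macrophages, and their sum ranged from 334 to 372 TPM against 200 to 216 TPM. Whether that RNA contributes to the B2m values was not tested.

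The difference of differences asks whether macrophages of different uptake status differed by another amount under IFN-γ than under IL-10, and was tested as an interaction in limma over the 16 libraries of the 4 groups concerned. For Treg against Tconv uptake, 4 members had a lower difference under IFN-γ and 0 a higher one, against 7.78% of all genes called lower. They were Nlrc5 at -1.39 (-1.79 to -1.0, adjusted p = 0.00015), H2-K1 at -0.85 (-1.08 to -0.63, adjusted p = 8.5e-05), Tap1 at -0.46 (-0.61 to -0.31, adjusted p = 0.00034) and Psmb9 at -0.50 (-0.79 to -0.21, adjusted p = 0.023). Tapbp, called within IFN-γ, was not called here, at -0.03 (-0.15 to 0.09). Psmb9 was no longer called without IFN-γ Tconv library BV421-2, IL-10 Tconv library Ax647-1 or IL-10 Treg library Ax647-2, with an adjusted p up to 0.057. Of all called genes, 42.8% were higher with scaling and 19.2% without.

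For Treg uptake against non-phagocytic macrophages, 5 members had a lower difference under IFN-γ and 0 a higher one, against 6.22% of all genes called lower. Nlrc5 was at -0.95 (-1.45 to -0.45, adjusted p = 0.017; 0.050 with no filter on low values), H2-K1 at -0.85 (adjusted p = 3.1e-05), Tap1 at -0.50 (adjusted p = 0.0011), Psmb9 at -0.46 (adjusted p = 0.032) and B2m at -0.38 (-0.46 to -0.30, adjusted p = 1.4e-05). The Psmb9 call was lost in 9 of 25 alternatives, including without IFN-γ non-phagocytic library 1, 2 or 4, IL-10 non-phagocytic library 1 or 3 or IL-10 Treg library Ax647-2, BV421-1 or BV421-2. For Tconv uptake against non-phagocytic macrophages, B2m was the 1 member called, at -0.30 (-0.39 to -0.22, adjusted p = 0.0011), with 1.47% of all genes called lower. For B2m this combines a rise under IL-10 with a difference of -0.10 under IFN-γ that was not called. The share of called genes that were higher in this last interaction was 12.2% with scaling and 64.5% without.

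Immunoproteasome subunits take the places of Psmb5, Psmb6 and Psmb7, and ratios of TPM within a library do not depend on the scaling. Psmb8/Psmb5 averaged 1.19 ± 0.0200 (SD, n = 4) in M0 and 2.19 ± 0.179, 2.32 ± 0.379 and 1.61 ± 0.0442 in non-, Tconv- and Treg-phagocytic macrophages under IFN-γ. Under IL-10 it averaged 1.46 ± 0.0679, 1.57 ± 0.0710 and 1.46 ± 0.0892. The IFN-γ Treg-phagocytic libraries (1.56 to 1.67) lay below all libraries of the other IFN-γ groups (1.94 to 2.85) and above all 4 M0 libraries. Between Treg and Tconv uptake under IFN-γ, Psmb8 itself was not called, at -0.06, while Psmb5 was called higher, at 0.45.

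Psmb9/Psmb6 had the same layout, with the IFN-γ Treg-phagocytic libraries (0.236 to 0.272) between M0 and the other IFN-γ groups. It was at 0.173 ± 0.00780 in M0, at 0.353 ± 0.0235, 0.375 ± 0.0639 and 0.259 ± 0.0169 under IFN-γ and at 0.239 ± 0.0178, 0.225 ± 0.0119 and 0.246 ± 0.0103 under IL-10. Psmb10/Psmb7 averaged 1.05 ± 0.0901 in M0, 1.61 ± 0.205, 1.40 ± 0.181 and 1.38 ± 0.232 under IFN-γ and 1.38 ± 0.0934, 1.33 ± 0.0975 and 1.24 ± 0.0228 under IL-10. For Psmb10/Psmb7 the 3 IFN-γ groups overlapped. The summed heavy chains over the light chain, (H2-K1 + H2-D1)/B2m, averaged 2.90 ± 0.283 in M0, 1.78 ± 0.0747, 1.97 ± 0.116 and 1.40 ± 0.0614 under IFN-γ and 2.69 ± 0.126, 2.45 ± 0.0769 and 2.22 ± 0.0173 under IL-10. It was lowest after Treg uptake under both cytokines.

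With 4 libraries against 4 there are 70 arrangements, and the smallest p that a 2-sided exact permutation test can give is 0.0286. Of 44 tests (4 ratios in 11 comparisons), 25 reached it and 0 passed after Benjamini-Hochberg adjustment, the smallest adjusted p being 0.0503. Treg against Tconv uptake under IFN-γ was among those 25 for Psmb8/Psmb5 (log2 difference -0.51), Psmb9/Psmb6 (-0.52) and (H2-K1 + H2-D1)/B2m (-0.50), and not for Psmb10/Psmb7 (-0.03, exact permutation p = 0.83). This count rests on the 25 tied p-values, and leaving out 1 library gave 0 to 27 ratios past the threshold, 27 without IFN-γ Tconv-phagocytic library BV421-1 or IL-10 Tconv-phagocytic library Ax647-2. With all libraries the ratios failed the correction and are given as values.

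**Figure D4:**
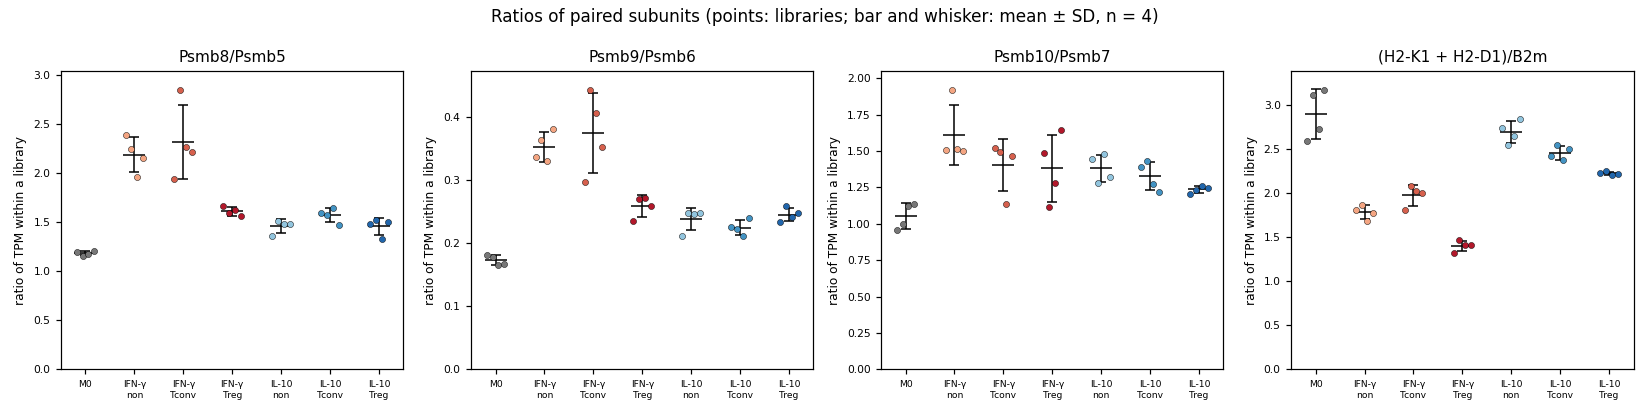
The 4 ratios of TPM within each library (vertical axis, linear) in the 7 groups, with 1 point per library and the mean ± SD (n = 4). For Psmb8/Psmb5 and Psmb9/Psmb6 the IFN-γ Treg-phagocytic points lie below the other IFN-γ points, and for (H2-K1 + H2-D1)/B2m they are the lowest of all groups.

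Other genes of the pathway were counted in lists of known members. Of 12 further class I and class I-like heavy chains tested, 9 were higher in IFN-γ non-phagocytic macrophages than in M0 and 0 lower (27.1% and 25.8% of all genes). Among them were H2-Q7 (Qa-2) at 1.75 and H2-T23 (Qa-1) at 1.31. After Treg against Tconv uptake under IFN-γ 6 of the 12 were lower and 0 higher (7.30% and 5.40% of all genes). Among them were H2-Q10 at -1.62 (-2.30 to -0.95), H2-Q7 at -0.38 and H2-T23 at -0.31, while H2-M3 was not called at -0.04 (-0.25 to 0.16). After Treg uptake against none under IL-10 4 were higher and 0 lower (6.91% and 4.49% of all genes), among them H2-Q6 at 0.49 and H2-Q7 at 0.45. These chains share sequence, so the assignment of reads among them is uncertain as well.

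Transcription factors known to act at class I genes gave 8 of 17 higher and 4 lower in IFN-γ non-phagocytic macrophages against M0, where 27.1% of all genes were called higher and 25.8% lower. Irf1, an interferon-induced activator, rose by 2.37. After Treg against Tconv uptake under IFN-γ 5 were lower and 1 higher (7.30% and 5.40% of all genes). Stat2 fell by 1.58 (-1.91 to -1.25) and Irf1 by 1.08 (-1.41 to -0.76), while Nfya, a subunit of the factor that binds CCAAT, rose by 0.35. Rfx5, a subunit of the RFX complex with which Nlrc5 acts, was not called, at -0.81 (-1.33 to -0.29, adjusted p = 0.053). The interaction of that contrast with the cytokine was called for Stat2 (-1.63) and Irf1 (-1.08).

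Of 8 proteasome activators and assembly factors, 4 were higher in IFN-γ non-phagocytic macrophages than in M0 and 0 lower (27.1% and 25.8% of all genes). The 4 included both subunits of the PA28 activator, Psme1 (1.04) and Psme2 (1.32), and the assembly factor Pomp (1.35). After Treg against Tconv uptake under IFN-γ 5.40% of all genes were called higher and 7.30% lower. Of the 8, only 1 was called there, Psme4 at -0.51, with Psme1 at 0.03 (-0.18 to 0.25) and Psme2 at 0.05 (-0.49 to 0.59) not called. Of the 3 constitutive catalytic subunits, 2 were higher and 0 lower in that comparison: Psmb5 rose by 0.45 (0.22 to 0.69) and Psmb7 by 0.30 (0.11 to 0.48, adjusted p = 0.04996), with Psmb6 at 0.14 (-0.04 to 0.32) not called. Of 11 other subunits of the 20S core, 2 were higher and 0 lower there, with Psma5 at 0.35. Under IL-10, 7 of those 11 were higher after Treg uptake than in non-phagocytic macrophages (6.91% of all genes), Psma3 the most at 0.37. Psme1 (0.25), Psme2 (0.35) and Pomp (0.41) were also higher there.

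Among 10 genes of peptide loading, folding and trimming in the endoplasmic reticulum, 1 was higher and 6 lower in IFN-γ non-phagocytic macrophages than in M0 (27.1% and 25.8% of all genes), including the chaperone Calr at -0.10. After Treg against Tconv uptake under IFN-γ 3 were higher and 1 lower (5.40% and 7.30% of all genes), with the chaperone Hspa5 (BiP) at 0.33 and the aminopeptidase Lnpep at -0.55. Erap1, which trims peptides for class I, was not called, at -0.43 (-1.06 to 0.20), nor was Tapbpl, a relative of tapasin, at -0.05 (-0.40 to 0.31). Of 6 cytosolic peptidases 2 were lower there and 0 higher, with Tpp2 at -0.76. Each of these lists held members that were not called in that comparison, and whether a list moved as 1 block was not tested.

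Within the 12 IFN-γ libraries the median Pearson correlation over the 45 pairs of members was 0.39 and ranged from -0.58 (Tap1 with Psmb10) to 0.97 (Nlrc5 with Tap1). Within the 12 IL-10 libraries the median was 0.23. These values describe libraries that fall into 3 groups each and share their scaling. The genes whose log2 level followed the mean of the 10 members most closely over the 12 IFN-γ libraries were Mfsd12, Pnpla7, Fnip1, Fbrs and Ubp1, with correlations of 0.98 to 0.99. Over all 28 libraries they were Cenpa, Gbp2, Cep85, mt-Rnr1 and Luc7l3, each at 0.99, over libraries in which the IFN-γ groups stand apart from the rest. Gbp2, an interferon-induced GTPase, averaged 4.75 TPM in M0, 262, 200 and 62.7 TPM in non-, Tconv- and Treg-phagocytic macrophages under IFN-γ and 8.10 to 11.7 TPM under IL-10.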

How the data were processed

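Per the labels' protocols, RNA was extracted with RNAiso PLUS and poly(A) libraries were made with the NEBNext Ultra II Directional kit. STAR, RSEM and mm10 are named in the submitters' processing notes without versions, and the annotation is not given in the sources used here. The deposited values are TPM with 2 decimals; 55141 gene IDs had a symbol and 346 had none. Of 378 pairs of libraries 0 were identical, and none was left out. Counts are unknown; relative depth came from 14527 genes with 1 transcript of 500 to 2000 nt, where 88.3% to 92.6% of low values lay within 0.15 reads of a whole number (30% by chance).

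TPM were divided by a trimmed-mean scaling factor (30% of ratios, 5% of levels), a pseudocount of 1 TPM was added, and log2 values were fitted with limma 3.58.1 (R 4.3.3; eBayes with trend) on only the groups compared. The 13631 genes that reached 1 TPM in 4 or more libraries were tested, adjusted by Benjamini-Hochberg and called under 0.05. The log scale understates changes of low genes. Ratios were compared by a 2-sided exact permutation test. The scripts were tested on simulated data. Alternatives were other scalings, pseudocounts (0.1, 5), filters (none, 5 TPM) and models, dye covariates, replicate blocks, leaving out each library and, added after seeing the data, a GC and length correction. Members, lists and tests were chosen with earlier results of these data known. Named were all members, 14 pathway genes whatever their values, per list and comparison the called gene that rose most and the one that fell most, and the 5 genes most like the members; 1 gene that this rule picked is not reported here.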

Additional observations from a re-analysis of the deposited data

Results flagged for a closer look

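In 98 sets of 4 libraries (1 gene or ratio in 1 group), the highest or lowest library was checked against the rest, and 7 stood apart by Dixon's criterion; chance alone gives about 1 in 20. Non-phagocytic IFN-γ library 3 was the lowest for Nlrc5, at 38.3 TPM (nearest 65.4), and for H2-D1, at 4254 TPM (nearest 4430.4). For Nlrc5, IL-10 Tconv-phagocytic library Ax647-2 was the highest at 33.4 TPM (nearest 27.0). H2-D1 was highest in IL-10 Treg-phagocytic library Ax647-2 at 4369 TPM, although that whole group spanned less than 1% of its mean. The log2 ratio Psmb9/Psmb6 was lowest in IL-10 non-phagocytic library 1, at -2.24 (nearest -2.02). The log2 ratio Psmb10/Psmb7 was highest in IFN-γ non-phagocytic library 2, at 0.94 (nearest 0.60), and lowest in IFN-γ Tconv-phagocytic library Ax647-1, at 0.18 (nearest 0.55).

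The effect of uptake differed between the cytokines by the interaction test in limma for the following members, each given as the IFN-γ difference minus the IL-10 difference on the log2 scale. For Treg against Tconv uptake the values were -1.39 for Nlrc5, -0.85 for H2-K1, -0.46 for Tap1 and -0.50 for Psmb9. For Treg uptake against none they were -0.95 for Nlrc5, -0.85 for H2-K1, -0.38 for B2m, -0.50 for Tap1 and -0.46 for Psmb9. For Tconv uptake against none the value was -0.30 for B2m.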

How the results depend on the processing

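Of 66 called results for single members, 47 kept their call and direction in every alternative tried, 15 lost the call in at least 1 and 4 reversed. Those 4 reversed with no scaling: H2-D1 under IFN-γ against IL-10 became -0.061 in non-phagocytic, -0.084 in Treg-phagocytic and -0.033 in Tconv-phagocytic macrophages, and Tapbp in IFN-γ non-phagocytic macrophages against M0 became -0.14. Members called in IL-10 Treg- against Tconv-phagocytic macrophages went from 1 to 0 with no filter on low values, the GC and length correction, all 28 libraries in 1 model, either dye reading as a covariate and every replicate block, and to 2 with a variance per group. In IL-10 Treg-phagocytic against non-phagocytic macrophages they went from 2 to 1 with no filter, the GC and length correction, all 28 libraries in 1 model and the block, and in IL-10 Tconv-phagocytic against non-phagocytic macrophages from 2 to 1 with no scaling, no filter, all 28 libraries in 1 model and the block. IL-10 non-phagocytic macrophages against M0 went from 8 to 5 with no filter and with all 28 libraries in 1 model. The interaction of Treg uptake against none went from 5 to 3 with no filter. The causes were not tested.

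Leaving out 1 library gave 3 to 4 members called (IFN-γ Treg against Tconv, and Treg against non-phagocytic), 0 to 0 (IFN-γ Tconv against non-phagocytic; IL-10 Treg against Tconv), 1 to 2 (IL-10 Treg or Tconv against non-phagocytic), 9 to 9, 8 to 8 and 9 to 9 (IFN-γ against IL-10 in non-, Treg- and Tconv-phagocytic), 9 to 10 (IFN-γ against M0) and 6 to 8 (IL-10 against M0). It gave 3 to 5, 4 to 6 and 1 to 1 for the interactions Treg against Tconv, Treg against none and Tconv against none, and 0 to 27 ratios past the threshold, 27 without IFN-γ Tconv library BV421-1 or IL-10 Tconv library Ax647-2.

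In no comparison did every same-numbered pair deviate together by a correlation over 0.1, which does not exclude a pairing of the samples. By the number in the file name, 3 of 4 IFN-γ Treg libraries correlated best with their own Tconv number (at most 0.083, mean of other pairs -0.014). Under IL-10 this held for 2 of 4 (at most 0.11, mean of other pairs -0.014). By the number in the title it held for 0 of 4 under either cytokine. With the replicate block, IFN-γ Treg against Tconv gave 3 members (number in the title), 4 (number in the file name) and 5 (with the GC and length correction). IFN-γ Treg against non-phagocytic gave 3 and Tconv against non-phagocytic 0. IFN-γ against IL-10 gave 9, 8 and 9 in non-, Treg- and Tconv-phagocytic macrophages, and the cytokines against M0 gave 9 and 7.

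Counts over all genes moved by more than 1.5 times. IFN-γ Treg against Tconv gave 1731 (991 to 4432 over the alternatives), Treg against non-phagocytic 1131 (450 to 3867) and Tconv against non-phagocytic 1 (0 to 117). IL-10 gave 191 (63 to 368), 1554 (631 to 2097) and 822 (251 to 1229) in the same order, IL-10 against M0 3619 (1801 to 4025), and the interaction Tconv against none 229 (121 to 330). Depth was lowest under IFN-γ, and there it was lower in every Treg-phagocytic than in every Tconv-phagocytic library. The effect of depth on the members' differences and their precision was not tested.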
